A study of Mus musculus with 16 samples.

Results

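The activin system was described here in mouse hippocampus as 9 genes, which encode the activin subunits (Inhba and Inhbb), the activin binding protein follistatin (Fst), the type I receptors (Acvr1, Acvr1b and Acvr1c), the type II receptors (Acvr2a and Acvr2b) and the inhibitory SMAD protein SMAD7 (Smad7). They were 9 of the 22180 genes measured, each with 1 probe set. The set was chosen by measured values, namely the large difference of Inhba between status epilepticus (SE, a prolonged seizure) and saline. For that reason the differences between SE and saline among these 9 genes are descriptions: no p-value is given for them, and counts past the threshold of the fit stand only beside the share of all genes. Differences between genotypes were tested.

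Affymetrix arrays were hybridised to hippocampal RNA of C57BL/6 mice aged 8 to 10 weeks, with 16 arrays in 4 groups of 4. Control mice were labelled wild type with a glial cre. In Astro-D2KO mice the same glial cre acted on a floxed Dio2 gene, so both genotypes carried the recombinase. Lithium chloride (10 mEq/kg) was given to every mouse, followed 18 h later by saline or by pilocarpine at 65 mg/kg, the agent that induced SE. Lithium was thus common to all groups, and effects of pilocarpine and of seizures cannot be told apart. The sources used here do not give the promoter that drives the cre, the interval from pilocarpine to dissection, the sex of the animals or an array batch. Nothing in the labels says whether replicates came from separate experiments, so p-values measure the spread between these arrays. In tissue RNA, fewer cells of a type and less RNA per cell cannot be told apart.

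Activins are dimers of inhibin beta subunits and belong to the TGF-beta family. They bind a type II receptor, which recruits and phosphorylates a type I receptor, and this in turn phosphorylates SMAD2 and SMAD3, which enter the nucleus with SMAD4. Follistatin sequesters the ligand outside the cell, and SMAD7 blocks the type I receptor inside it and is itself induced by the pathway. In hippocampal neurons Inhba is known as a gene switched on by synaptic activity, and activin A is known for protecting neurons from excitotoxic injury.

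The stretches just upstream of the genes for both activin subunits are shown because these genes, which encode the same kind of protein, stood far apart in their values after SE. Both come from RefSeq on GRCm38.p6, as the 250 bases before the annotated start, chr13:16011601-16011850 on the plus strand for Inhba and chr1:119422249-119422498 on the minus strand for Inhbb, written 5′ to 3′. RefSeq also holds an Inhba start further upstream, so the window belongs to 1 of its annotated starts. Capitals mark a match to the TATA box, TATAAA.
Inhba: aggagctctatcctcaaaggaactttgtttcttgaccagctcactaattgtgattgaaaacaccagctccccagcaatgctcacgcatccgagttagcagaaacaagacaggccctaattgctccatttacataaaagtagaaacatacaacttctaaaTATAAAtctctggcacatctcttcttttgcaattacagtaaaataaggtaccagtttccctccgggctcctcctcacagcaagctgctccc
Inhbb: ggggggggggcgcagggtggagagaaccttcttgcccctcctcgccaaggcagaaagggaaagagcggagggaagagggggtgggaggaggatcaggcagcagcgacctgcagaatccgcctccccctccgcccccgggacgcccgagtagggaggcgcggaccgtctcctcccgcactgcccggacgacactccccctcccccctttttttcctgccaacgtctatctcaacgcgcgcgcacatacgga
The Inhba stretch held 43.2% G and C and the Inhbb stretch 68.0%, with a median of 52.4% over all 32851 RefSeq stretches of that length. The TATA box match of Inhba began 91 bases before the start, at position -91, and Inhbb held none. This motif was searched for after the sequence had been seen, and 12.4% of all stretches hold it on either strand. The other motifs searched, on both strands, were the cyclic AMP response element TGACGTCA (in 1.55% of all stretches), its half-site TGACG (17.8%, which the full element contains), the AP-1 site TGANTCA (6.75%), the SMAD box CAGAC (42.2%) and the CArG box (1.47%). None of those 5 matched in either stretch. Of the 8 genes looked up, 7 had an upstream stretch in the RefSeq set used here, and Fst had none. Among the receptors a SMAD box lay at position -188 of Acvr2a and at -233 of Acvr2b. Matches are descriptions of letters in these windows and do not show binding.

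**Figure D1:**
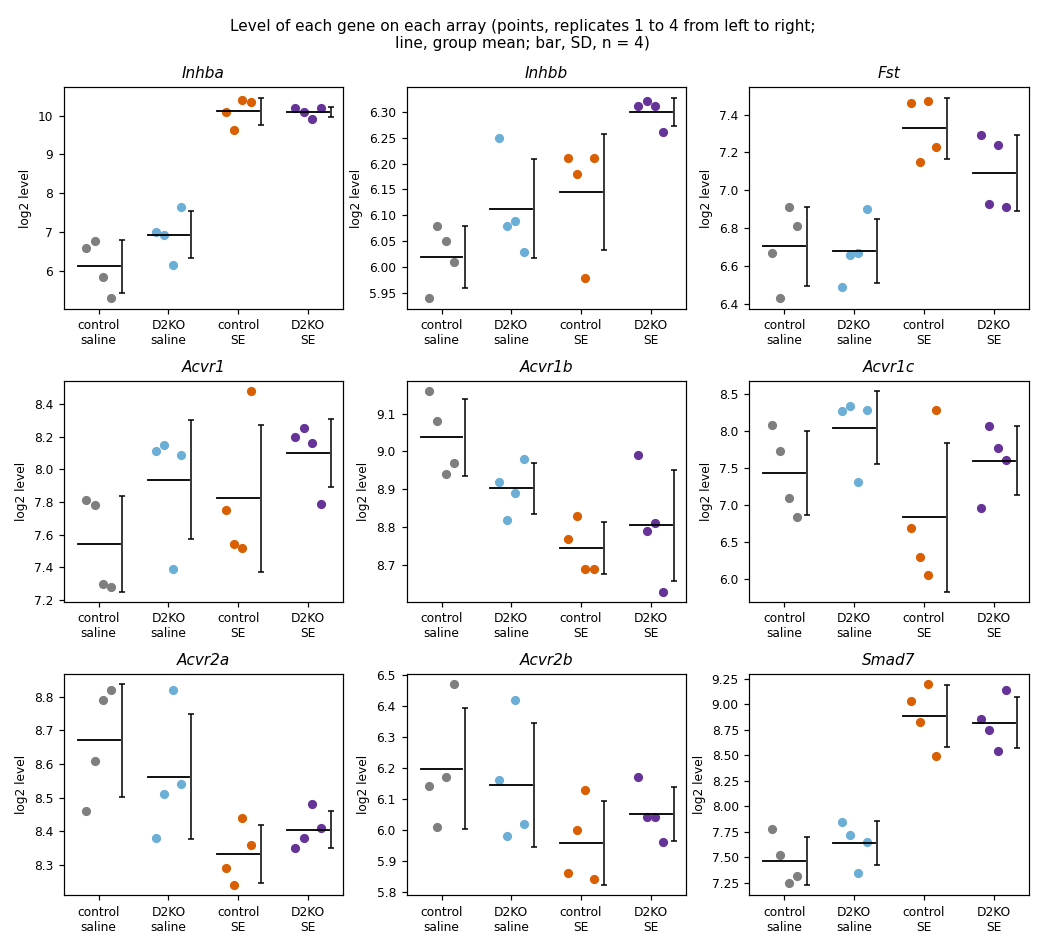
Level (log2) of each of the 9 genes on the 16 arrays, 1 panel per gene with its own vertical scale. Points are arrays, replicates 1 to 4 from left to right in each group, the line is the group mean and the bar 1 SD either side of it (n = 4). The SE arrays of Inhba, Fst and Smad7 lie above the saline arrays of the same genotype, with Inhba between 9.62 and 10.39 after SE and between 5.28 and 7.63 under saline.

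Inhba, which encodes the beta A subunit of activin A, stood far higher after SE than under saline in both genotypes. On the log2 scale its level on the control saline arrays, replicates 1 to 4, was 6.57, 6.77, 5.84 and 5.28, and on the control SE arrays it was 10.08, 9.62, 10.39 and 10.35. In Astro-D2KO mice it was 7.00, 6.92, 6.14 and 7.63 under saline and 10.19, 10.10, 9.92 and 10.19 after SE. All 8 SE arrays lay above all 8 saline arrays, and the Astro-D2KO SE arrays were the most alike. The difference was 3.99 ± 0.30 (standard error of the fit) in control mice, or 15.9-fold, from a mean of 6.12 ± 0.69 to 10.11 ± 0.35 (SD, n = 4). In Astro-D2KO mice it was 3.18 ± 0.30, or 9.05-fold, from 6.92 ± 0.61 to 10.10 ± 0.13 (SD, n = 4). In order of their means the groups ran from control saline through Astro-D2KO saline to both SE groups, where the 2 saline groups overlapped each other and so did the 2 SE groups.

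Inhbb, which encodes the beta B subunit, differed little by treatment. Its control saline arrays stood at 5.94, 6.08, 6.05 and 6.01 and its control SE arrays at 6.21, 6.18, 5.98 and 6.21. The Astro-D2KO saline arrays stood at 6.25, 6.08, 6.09 and 6.03 and the Astro-D2KO SE arrays at 6.31, 6.32, 6.31 and 6.26. The control groups overlapped through SE replicate 3, while the Astro-D2KO groups lay next to each other without overlap. The difference between SE and saline was 0.13 ± 0.074 in controls and 0.19 ± 0.074 in Astro-D2KO mice, against 3.99 and 3.18 for Inhba in the same units. The levels of Inhbb, 5.94 to 6.32, lay just above the array medians (5.77 to 5.82). A filter on level, tried as an alternative, dropped the gene. With so low a signal, a lack of response and a lack of detection cannot be told apart.

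The receptor genes differed less between SE and saline than Inhba and Smad7, with higher mean levels for 1 gene and lower ones for 4. The largest of these differences was that of Acvr1c, which also had the widest spread. Acvr1b encodes ALK4, the main type I receptor of activin. Its level was 9.16, 9.08, 8.94 and 8.97 on the control saline arrays and 8.77, 8.83, 8.69 and 8.69 on the control SE arrays, which all lay lower. In Astro-D2KO mice it was 8.92, 8.82, 8.89 and 8.98 under saline and 8.99, 8.79, 8.81 and 8.63 after SE, and these groups overlapped. The difference was -0.29 ± 0.083 in control mice (1.23-fold lower) and -0.09 ± 0.083 in Astro-D2KO mice.

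Acvr2a, a type II receptor gene, had a like pattern. It stood at 8.46, 8.61, 8.79 and 8.82 under saline and 8.29, 8.24, 8.44 and 8.36 after SE in control mice, with no overlap, and at 8.38, 8.51, 8.82 and 8.54 and then 8.35, 8.38, 8.48 and 8.41 in Astro-D2KO mice, with overlap. The differences were -0.34 ± 0.098 and -0.16 ± 0.098. For Acvr2b, the other type II receptor gene, whose levels ran from 5.84 to 6.47 over all arrays, the differences were -0.24 ± 0.11 in controls and -0.09 ± 0.11 in Astro-D2KO mice, and the groups overlapped in both genotypes. As for Inhbb, these levels were close to the array medians (5.77 to 5.82), and the filter on level dropped the gene.

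Acvr1c encodes ALK7, a type I receptor for activin B and Nodal, and it varied more between arrays of a group than the other receptor genes. Its control saline arrays stood at 8.07, 7.72, 7.09 and 6.84 and its control SE arrays at 6.69, 6.29, 6.05 and 8.28. The first 3 control SE arrays lay below every control saline array, and replicate 4 lay above them all. The difference was -0.60 ± 0.40 in controls and -0.45 ± 0.40 in Astro-D2KO mice, whose arrays stood at 8.26, 8.33, 7.30 and 8.28 under saline and 6.95, 8.06, 7.77 and 7.60 after SE. Acvr1 encodes ALK2, which mainly serves bone morphogenetic proteins, and its gene neighbours Acvr1c on chromosome 2 in RefSeq. Its levels ran from 7.28 to 8.15 under saline and from 7.52 to 8.48 after SE, with differences of 0.28 ± 0.21 in controls and 0.16 ± 0.21 in Astro-D2KO mice and overlap in both.

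Both inhibitors stood higher after SE. Smad7 was at 7.78, 7.52, 7.25 and 7.32 on the control saline arrays and at 9.03, 8.83, 9.20 and 8.49 on the control SE arrays. In Astro-D2KO mice it was at 7.85, 7.72, 7.35 and 7.65 under saline and at 8.86, 8.75, 8.54 and 9.14 after SE. Every SE array lay above every saline array, and the difference was 1.42 ± 0.16 (2.67-fold) in control mice and 1.18 ± 0.16 (2.27-fold) in Astro-D2KO mice.

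Fst was at 6.67, 6.43, 6.91 and 6.81 on the control saline arrays and at 7.46, 7.15, 7.47 and 7.23 on the control SE arrays. The Astro-D2KO arrays gave 6.49, 6.66, 6.67 and 6.90 under saline and 7.29, 6.93, 7.24 and 6.91 after SE. The SE arrays lay above the saline arrays within each genotype, narrowly so in Astro-D2KO mice, and the difference was 0.62 ± 0.12 (1.54-fold) and 0.41 ± 0.12 (1.33-fold).

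**Figure D2:**
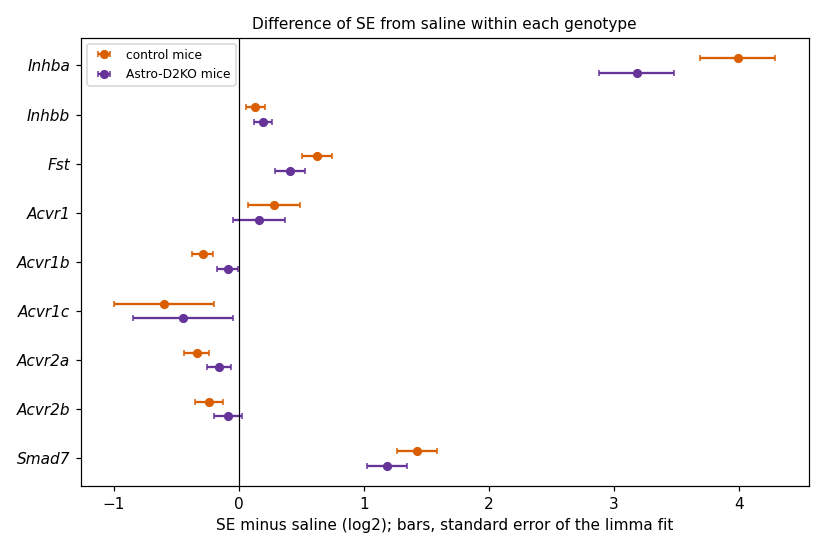
Difference of SE from saline (log2, horizontal axis) for the 9 genes in control and Astro-D2KO mice; points are differences of group means of 4 arrays and bars 1 standard error of the limma fit. Inhba lies at 3.99 and 3.18 and Smad7 at 1.42 and 1.18, while Inhbb and the receptor genes lie between -0.60 and 0.28.

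Across the 9 genes, 5 differed from saline past an adjusted p of 0.05 in the limma fit in control mice, 3 of them higher (Inhba, Fst and Smad7) and 2 lower (Acvr1b and Acvr2a). In the same comparison 22.1% of all genes passed, 8.42% as higher and 13.7% as lower. In Astro-D2KO mice 3 passed, all higher (Inhba, Fst and Smad7), where 20.1% of all genes passed, 7.49% as higher and 12.6% as lower. The median difference of the 9 genes was 0.13 in controls and 0.16 in Astro-D2KO mice, against -0.02 and -0.01 over all genes. Because the choice of genes used these comparisons, the counts describe the set and are no test of it.

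The arrays were checked by Dio2, the targeted gene, which encodes the deiodinase that makes active thyroid hormone. It was 2.57-fold lower in Astro-D2KO than in control mice under saline (exact permutation p = 0.0286, two-sided, the smallest that 4 against 4 arrays allow). After SE it was 2.66-fold lower, with overlap (exact permutation p = 0.0571, two-sided). The array labelled control SE replicate 4 had a Dio2 level of 7.99 against 9.11 to 9.51 on the other control SE arrays, and on the array labelled Astro-D2KO SE replicate 1 the level was 8.91 against 7.03 to 7.17. The level of Astro-D2KO SE replicate 1 thus went against its label. That of control SE replicate 4 was low for its group but lay within the 7.87 to 8.28 of the control saline arrays. Results that rest on this pair, called below the arrays singled out by Dio2, are given with and without both. The sources used here do not say if the Dio2 probe set covers the floxed stretch; one outside it would check nothing. Array levels correlated between 0.972 and 0.994 across genes, and 0 pairs were identical. The hippocampal markers Prox1 (8.25 to 9.40), Wfs1 (8.91 to 9.86) and C1ql2 (7.22 to 9.11) lay above the array medians (5.77 to 5.82) on all arrays. Other dentate granule cell markers did not, with lowest levels of 3.94 for Tdo2, 5.35 for Dsp and 5.36 for Lct.

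The next comparison asked whether loss of astrocytic Dio2 went with a different level of the activin genes. Under saline Inhba had the largest difference of the 9 genes, 0.80 ± 0.30 higher in Astro-D2KO mice (1.74-fold, 95% interval of the fit 0.18 to 1.43), and the groups overlapped. Leaving out 1 array moved it to between 0.52 (without control saline replicate 4) and 1.06 (without Astro-D2KO saline replicate 3). With an unadjusted p of 0.015 in limma it was the only one of the 9 genes under 0.05, and its adjusted p was 0.999. After SE the difference was -0.01 ± 0.30 (interval -0.63 to 0.62, limma adjusted p = 0.997). The interaction, which is the SE difference in Astro-D2KO mice minus that in control mice, was -0.81 ± 0.42 for Inhba (interval -1.70 to 0.07, limma adjusted p = 0.998). It lay between -1.07 and -0.53 with the same arrays left out in turn. Without both arrays singled out by Dio2 it was -0.76 ± 0.48, and the difference after SE was 0.04 ± 0.36.

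Of the 9 genes, 0 passed in limma under saline, after SE or in the interaction, and the share of all genes that passed was 0% in each. The targeted gene Dio2 did not pass either (limma adjusted p = 0.999 under saline and 0.532 after SE). Counts of 0 in this fit thus do not show a lack of genotype differences. At an unadjusted p under 0.05 there were 885, 1358 and 1031 of all genes in these comparisons, and 1, 0 and 0 of the 9. After SE, Inhbb was 0.16 ± 0.074 higher in Astro-D2KO mice, with every Astro-D2KO SE array above every control SE array (limma adjusted p = 0.819). The share of all genes whose arrays separated in this way is not given, so nothing is read from it. Fst differed by -0.24 ± 0.12, with overlap (limma adjusted p = 0.845). Without both arrays singled out by Dio2 these were 0.17 ± 0.088 for Inhbb (limma adjusted p = 0.486) and -0.33 ± 0.14 for Fst (unadjusted p of 0.0321, limma adjusted p = 0.383). Smad7 differed by 0.18 ± 0.16 under saline (interval -0.16 to 0.51) and by -0.06 ± 0.16 after SE (interval -0.40 to 0.27), or -0.21 ± 0.17 without both arrays. Acvr1 differed by 0.39 ± 0.21 under saline (interval -0.05 to 0.83) and by 0.28 ± 0.21 after SE. For Acvr1b, Acvr2a and Acvr2b the differences lay between -0.14 and 0.10 in both treatments, with or without both arrays. These intervals hold sizes larger than several of the SE differences above, so the data do not show that the genotypes were alike.

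**Figure D3:**
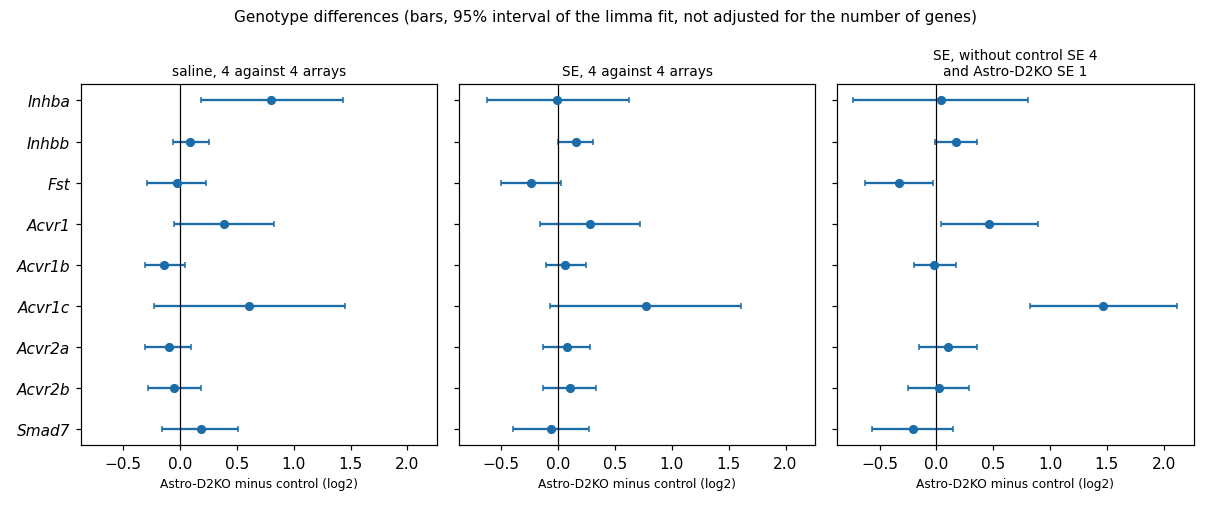
Astro-D2KO minus control (log2, horizontal axis) for the 9 genes under saline, after SE, and after SE without the arrays labelled control SE replicate 4 and Astro-D2KO SE replicate 1; bars are 95% intervals of the limma fit, not adjusted for the number of genes. Inhba lies at 0.80 under saline and -0.01 after SE, and Acvr1c moves from 0.77 to 1.47 between the middle and right panels.

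Acvr1c had the largest difference between genotypes after SE, and its size rested on the arrays singled out by Dio2. With all arrays it was 0.77 ± 0.40 higher in Astro-D2KO mice (1.70-fold, interval -0.07 to 1.61, limma adjusted p = 0.839), with overlap. Control SE replicate 4 had the highest Acvr1c level of the 8 SE arrays, and Astro-D2KO SE replicate 1 the lowest of its group. Without both, the level was 6.35 ± 0.32 in control SE and 7.81 ± 0.23 in Astro-D2KO SE arrays (SD, n = 3), with no overlap. Groups this small separate easily by chance, and the share of all genes that did so is not given.

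The difference then was 1.47 ± 0.31 (2.76-fold, interval 0.82 to 2.12), with an unadjusted p of 0.000225 and a limma adjusted p of 0.098, which did not pass either. The interaction for Acvr1c moved from 0.16 ± 0.56 to 0.86 ± 0.40 (limma adjusted p = 0.746), and its SE difference in control mice from -0.60 to -1.09 ± 0.29, with no overlap. These arrays were left out for their Dio2 level, yet their Acvr1c level was known too, so the value without them is no independent support. Among marker lists, the log2 summed level of CA1 pyramidal cell markers (3 of 4 measured) was 9.77, 9.67, 9.93 and 10.08 on the control SE arrays and 10.29, 10.02, 9.95 and 10.21 on the Astro-D2KO SE arrays. Without the same arrays these ranges just missed each other, at 9.93 against 9.95, while the ranges of every other marker list overlapped. With groups this small and several lists looked at, a gap of this kind arises easily by chance. The part of this in the Acvr1c values was not tested.

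Acvr1, the neighbour of Acvr1c, also moved when these arrays were left out. After SE it was then 0.46 ± 0.20 higher in Astro-D2KO mice (limma adjusted p = 0.396). The groups did not overlap, a weak sign with so few arrays and given without the share of all genes. The SE difference of Acvr1 in control mice was 0.06 rather than 0.28. The SE differences of Inhba were 3.91 ± 0.34 and 3.15 ± 0.34 without them, those of Smad7 were 1.55 and 1.17, and those of Fst were 0.66 and 0.35. Of the 9 genes, 6 then passed between SE and saline in controls and 2 in Astro-D2KO mice, where 21.2% and 18.2% of all genes did. As before, these counts describe the set and are no test of it. In the genotype comparisons 0 of the 9 passed. Of all genes, 0.00451% passed under saline (Dio2), 0.0225% after SE (Cip2a, Dio2, Fa2h, Pcna and Serpinb2) and 0.00451% in the interaction (Serpinb2). As the arrays were left out for their Dio2 level, the passing of Dio2 is no independent support.

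**Figure D4:**
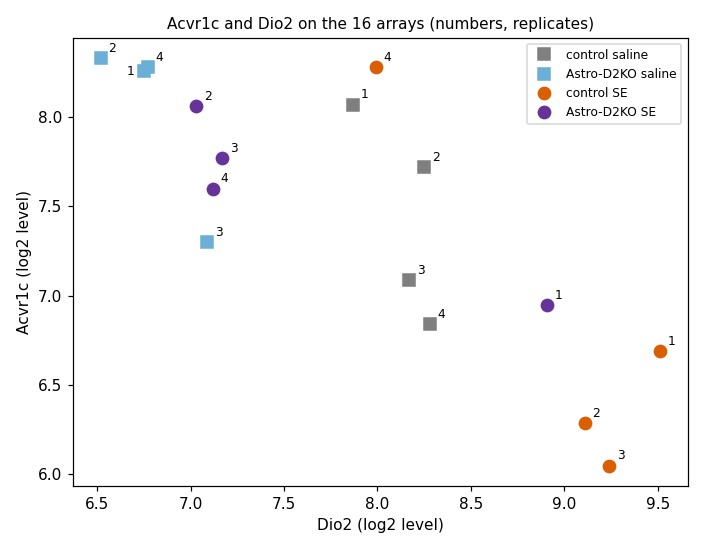
Acvr1c level (log2, vertical axis) against Dio2 level (log2, horizontal axis) on the 16 arrays, with colours for the groups and numbers for the replicates. Control SE replicate 4 lies at a Dio2 level of 7.99 and an Acvr1c level of 8.28, away from control SE replicates 1 to 3, and Astro-D2KO SE replicate 1 lies at 8.91 and 6.95, away from Astro-D2KO SE replicates 2 to 4.

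The saline arrays of Inhba spread over 2.35 log2 units, against 0.77 for its SE arrays. The 3 lowest saline arrays for Inhba were control saline replicates 4 and 3 and Astro-D2KO saline replicate 3, at 5.28 to 6.14 against 6.57 to 7.63 on the other 5. The same 3 arrays were the lowest of the 8 for Acvr1 (7.28 to 7.39 against 7.78 to 8.15), Acvr1c (6.84 to 7.30 against 7.72 to 8.33) and Smad7 (7.25 to 7.35 against 7.52 to 7.85). They were the highest for Acvr2a (8.79 to 8.82 against 8.38 to 8.61) and Acvr2b (6.17 to 6.47 against 5.98 to 6.16).

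For Inhbb, Fst and Acvr1b the 3 arrays lay among the others. This order was noticed in the values and was not tested. In the same 3 arrays the log2 summed level of leptomeningeal fibroblast markers (6 of 6 measured) was 9.96 to 10.07 against 8.98 to 9.79, that of choroid plexus markers (5 of 6 measured) was 10.20 to 13.30 against 9.27 to 10.93, and that of dentate granule cell markers (5 of 5 measured) was 10.22 to 10.54 against 9.62 to 10.29. The leptomeningeal level thus separated the 3 arrays from the others, while the ranges of every other marker list overlapped, choroid plexus and dentate among them. The part of these levels in the values of the 9 genes was not tested. As 2 of the 3 arrays were control arrays and 1 was an Astro-D2KO array, the genotype difference of Inhba under saline shares this spread.

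The genes whose pattern over the arrays was most like that of Inhba were sought among all genes, each taken as its level minus its own mean in control saline. The root mean square difference from Inhba over the 16 arrays was 0.53 for Fos, 0.59 for Ccl3, 0.63 for Fosb, 0.63 for Atf3 and 0.74 for Lilrb4a, against a median of 2.89 over all genes. Because Inhba stood far higher on the SE arrays, a small value mostly marks a rise after SE of similar size. That rise is the value by which the set was chosen. A gene without such a rise scores high, so the median is no yardstick of likeness. Fos and Fosb encode parts of the AP-1 transcription factor, Atf3 a stress-induced transcription factor, Ccl3 a chemokine and Lilrb4a an inhibitory receptor of myeloid cells.

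Their SE differences in control and Astro-D2KO mice were 3.87 and 3.76 for Fos, 3.95 and 4.15 for Ccl3, and 4.58 and 4.13 for Fosb, with 3.37 and 2.99 for Atf3 and 3.21 and 3.35 for Lilrb4a. The Inhba values beside them are 3.99 and 3.18. Under saline, the arrays lowest for Inhba were also the 3 lowest for Fos, Fosb, Atf3 and Lilrb4a, but not for Ccl3. The saline arrays were part of the ranking, so this order is no separate support. Without the arrays singled out by Dio2, Fos (0.46), Atf3 (0.63), Ccl3 (0.63), Ptgs2 (0.65) and Fosb (0.66) came first and Lilrb4a 8th (0.78).

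**Figure D5:**
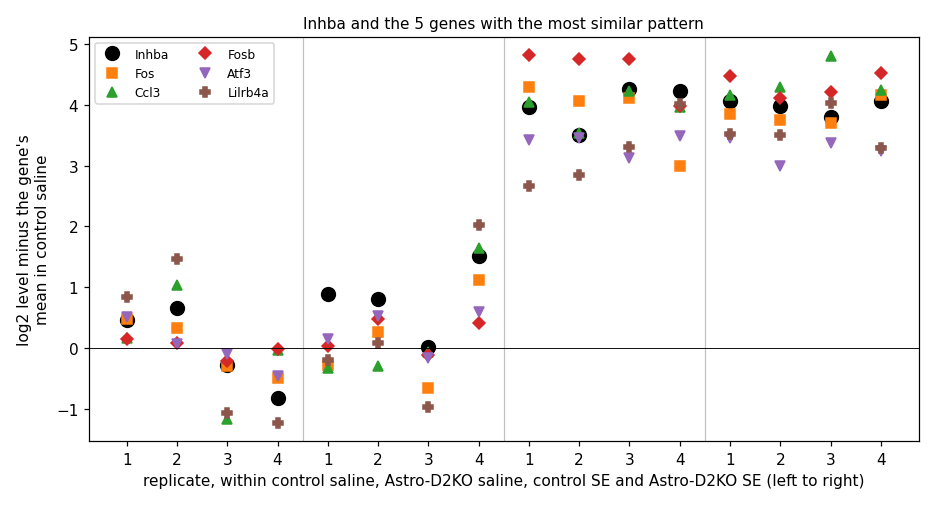
Level of Inhba and of the 5 genes with the smallest root mean square difference from it, each as its log2 level minus its own mean on the control saline arrays (vertical axis), over the 16 arrays (horizontal axis, by group). Inhba lies between 3.50 and 4.27 on the SE arrays and between -0.83 and 1.51 on the saline arrays, and Fos, the nearest gene, differs from it by 0.53 (root mean square).

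The rest of the pathway was covered by 69 listed genes, of which 65 were measured. In control mice 12 rose and 2 fell after SE, 18.5% and 3.08% of those measured, where 8.42% of all genes rose and 13.7% fell. In Astro-D2KO mice 14 rose and 5 fell, 21.5% and 7.69%, against 7.49% and 12.6% of all genes. The medians were 0.07 and 0.10 against -0.02 and -0.01 over all genes, and 0 of the 65 passed in limma in any genotype comparison. Among other ligands (18 of 20 measured), 2 rose and 0 fell in control mice and 3 rose and 1 fell in Astro-D2KO mice, with medians of 0.03 and 0.07. The share called, 11.1% and 22.2%, lay below and near the 22.1% and 20.1% of all genes. Tgfb2, which encodes a TGF-beta ligand, rose in both, by 0.97 ± 0.17 and 1.05 ± 0.17 (limma adjusted p = 0.000483 and 0.000282). Tgfb1 rose by 0.57 ± 0.13 in control mice. In Astro-D2KO mice Tgfb3 rose by 0.55 and Bmp2, a bone morphogenetic protein gene, by 0.50, while Gdf10, another ligand gene of the family, fell by 0.43. Bmp2 did not pass without Astro-D2KO saline replicates 1, 2 or 4 or Astro-D2KO SE replicates 2, 3 or 4. It also did not pass with quantile normalisation repeated or in the fit on its own 2 groups (0.39 to 0.50 over these settings). Tgfb3 did not pass without Astro-D2KO saline replicate 3 or in the fit on its own 2 groups (0.52 to 0.55).

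Of 4 convertases that cleave the ligand precursors, Furin rose in both genotypes, by 0.86 ± 0.16 and 0.79 ± 0.16 (limma adjusted p = 0.000901 and 0.00195). The list's medians were 0.17 and 0.03.

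Among other receptors and co-receptors (10 of 10 measured), 2 rose and 0 fell in control mice and 2 rose and 1 fell in Astro-D2KO mice, with medians of 0.12 and 0.14. With so few genes the counts lie near the 22.1% and 20.1% of all genes called. Eng, which encodes the endothelial co-receptor endoglin, rose in both, by 0.83 ± 0.13 and 0.63 ± 0.13 (limma adjusted p = 0.000157 and 0.00185). Bmpr1a rose by 0.37 ± 0.062 in control mice. Acvrl1, the type I receptor gene of endothelium, rose by 0.29 and the co-receptor gene Tgfbr3 fell by 0.48 in Astro-D2KO mice. The log2 summed level of 5 of 5 endothelial markers was 9.93 to 10.21 on saline arrays and 10.29 to 10.53 on SE arrays. Its members went both ways, with differences of 1.41 and 1.41 for Cdh5, 0.52 and 0.41 for Pecam1, 0.46 and 0.34 for Flt1 and 0.14 and 0.25 for Cldn5, but -2.16 and -2.01 for Slco1a4. That of microglial markers (5 of 6 measured) was 10.13 to 10.39 on saline arrays and 9.51 to 9.95 on SE arrays, and all 5 were lower after SE. The part of either in these values was not tested. Tgfbr3 did not pass without Astro-D2KO saline replicates 1, 2 or 3 or Astro-D2KO SE replicates 1, 2 or 3. It also did not pass without both arrays singled out by Dio2 or with quantile normalisation repeated (-0.48 to -0.41 over these settings). Acvrl1 did not pass without Astro-D2KO saline replicates 1 or 2 or Astro-D2KO SE replicate 3 (0.23 to 0.27).

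Of the other extracellular binders and inhibitors (11 of 12 measured), 1 rose and 1 fell in control mice and 2 rose and 2 fell in Astro-D2KO mice, with medians of 0.05 and 0.08. The share called was 18.2% and 36.4%, against 22.1% and 20.1% of all genes. The follistatin-like gene Fstl4 rose by 0.66 ± 0.15 and 0.81 ± 0.15, and Chrd, which encodes the BMP antagonist chordin, fell by 0.63 and 0.62 (-0.63 ± 0.12 and -0.62 ± 0.12). Grem1, another BMP antagonist gene, rose by 0.60 and Bambi, a decoy receptor gene, fell by 0.35 in Astro-D2KO mice. Bambi did not pass without Astro-D2KO saline replicate 2 (-0.25).

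Among the SMADs and their regulators (16 of 16 measured), 3 rose and 1 fell in control mice and 2 rose and 1 fell in Astro-D2KO mice, with medians of 0.09 and 0.03. The share called, 25.0% and 18.8%, was near the 22.1% and 20.1% of all genes, so the counts say nothing particular of the list. Smad1, of the BMP branch, rose by 0.38 and 0.34, the inhibitory Smad6 rose by 0.40 and 0.42, and Smad9, also of the BMP branch, fell by 0.47 and 0.44. The SMADs that carry the activin signal did not pass, with differences of 0.13 and -0.08 for Smad2, -0.25 and 0.02 for Smad3 and -0.10 and -0.11 for Smad4.

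The ubiquitin ligase gene Smurf2 rose by 0.26 in control mice. Its call was lost without any 1 of the control saline arrays, without control SE replicates 1, 3 or 4 and under 5 other settings (0.23 to 0.27). Smad6 was lost in control mice without control saline replicates 1, 2 or 3 or control SE replicates 2 or 4 (0.30 to 0.41), and in Astro-D2KO mice without saline replicates 1, 2 or 4 or SE replicates 2, 3 or 4 (0.32 to 0.41). Smad9 was lost in control mice without saline replicates 1 or 2 or SE replicates 1 or 3 (-0.47 to -0.40). In Astro-D2KO mice it was lost without saline replicates 1, 2 or 4 or SE replicates 1 or 3. There it was also lost without both arrays singled out by Dio2, with quantile normalisation repeated and in the fit on its own groups (-0.45 to -0.33 over these settings).

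Of the genes known to be induced through SMADs (11 of 12 measured), 4 rose and 0 fell in control mice and 5 rose and 1 fell in Astro-D2KO mice, with medians of 0.35 and 0.45. The shares that rose, 36.4% and 45.5%, stand beside 8.42% and 7.49% of all genes. Cdkn1a, which encodes the cell cycle inhibitor p21 and has many other inducers, rose by 2.09 ± 0.33 and 1.91 ± 0.33 (limma adjusted p = 0.000222 and 0.000565). Id1 rose by 0.55 and 0.64 and Id2 by 0.73 and 0.81, both inhibitors of basic helix-loop-helix factors and targets of BMP signalling. Smad6 and Bambi are on this list too. Ccn2, which encodes connective tissue growth factor, rose by 0.50 in Astro-D2KO mice but not without saline replicates 1 or 3 or SE replicates 2, 3 or 4 of that genotype, or when its probe sets were averaged (0.29 to 0.49). Skil (-0.04 and -0.08) and Pmepa1 (0.52 ± 0.41 and 0.45 ± 0.41), which activin and TGF-beta induce, did not pass. Nor did the rest of the list, Tgif1 (0.27 and 0.56), Cdkn2b (0.17 and 0.21) and Id3 (-0.01 and 0.19).

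The last list held the other 9 genes that were named with Inhba as activity-regulated inhibitors of death in cultured hippocampal neurons. Of these 8 rose and 0 fell in each genotype, with medians of 2.80 and 2.99. That is 88.9%, beside 8.42% and 7.49% of all genes. Npas4, an activity-induced transcription factor gene, rose by 4.97 and 4.78, Nr4a1, a nuclear receptor gene, by 3.01 and 3.12, and Atf3 by 3.37 and 2.99. Gadd45g and Gadd45b, stress sensors, rose by 3.02 and 3.41 and by 2.80 and 2.30. Serpinb2, which encodes an inhibitor of plasminogen activators, rose by 1.88 ± 0.64 in controls and by 3.20 ± 0.64 in Astro-D2KO mice (limma adjusted p = 0.042 and 0.00165).

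Serpinb2 was the 1 gene of these lists that passed between genotypes when the arrays singled out by Dio2 were left out. Without the arrays labelled control SE replicate 4 and Astro-D2KO SE replicate 1 its level after SE was 2.70 ± 0.17 higher in Astro-D2KO mice (limma adjusted p = 1.02e-06) and its interaction was 2.72 ± 0.22 (limma adjusted p = 4.92e-05), against 1.30 ± 0.64 (limma adjusted p = 0.827) and 1.32 ± 0.90 (limma adjusted p = 0.998) with all arrays. Both arrays were left out for their Dio2 level with earlier results of these data known. The Serpinb2 values without them are therefore no independent support. The rise of Serpinb2 in control mice was 0.92 ± 0.15 without both arrays and passed (limma adjusted p = 0.000624). With control SE replicate 4 alone left out it was also 0.92 and did not pass. Nor did it pass without any 1 of the control saline arrays, control SE replicate 1 or Astro-D2KO saline replicates 1, 2 or 4, or under trend and robust moderation, array weights or the fit on its own 2 groups (0.92 to 2.05 over all these settings).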

How the data were processed

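Hippocampal RNA of 16 mice was measured on Affymetrix arrays. The authors deposited 1 value per probe set and array, made with RMA per the submitters' processing notes. The base of the scale is not written in the table, and the deposited values were read as log2 from their range, 1.70 to 13.79. Arrays have no read depth, so their number limits the precision.

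Of 41345 probe sets, the 23521 with exactly 1 gene symbol were kept, and the one with the highest mean over the 16 arrays stood for a gene, which left 22180 genes with no filter on level. A mean for each of the 4 groups was fitted with limma 3.58.1 (R 4.3.3), with moderated two-sided tests adjusted by Benjamini-Hochberg over all genes within each contrast and a threshold of 0.05. The fit was tested on simulated data. Dio2 was tested by exact permutation.

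The 9 genes, the pathway and marker lists and the comparison without a pair of arrays were chosen with earlier results of these data known. Named were all 9 genes, the list genes that passed (at most 6 per list), the 5 genes most like Inhba and Dio2. Cip2a, Fa2h, Pcna, Ptgs2, the SMADs of the activin branch, Skil, Pmepa1, Tgif1, Cdkn2b and Id3 were named after their values were seen. Promoter sequences came from RefSeq. Sequences of Smad7 were not used here.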

Additional observations from a re-analysis of the deposited data

Results flagged for a closer look

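Some arrays stood apart from the others of their group by Dixon's criterion for 4 values, which chance meets in about 5% of groups. It was met in 5 of the 40 groups looked at, which are the 4 groups for each of the 9 genes and Dio2.

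Acvr1c stood at 7.30 and Acvr1 at 7.39 on Astro-D2KO saline replicate 3, where the other Astro-D2KO saline arrays held 8.26 to 8.33 and 8.09 to 8.15. The same array had the lowest Inhba level of its group, 6.14. Inhbb stood at 5.98 on control SE replicate 3 against 6.18 to 6.21, and at 6.26 on Astro-D2KO SE replicate 4 against 6.31 to 6.32. Dio2 stood at 8.91 on the array labelled Astro-D2KO SE replicate 1 against 7.03 to 7.17 on the others. Control SE replicate 4 did not meet the criterion for Dio2.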

How the results depend on the processing

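The alternatives left out each array in turn or the arrays labelled control SE replicate 4 and Astro-D2KO SE replicate 1 together, added a replicate block, changed the scaling, the probe sets per gene or the moderation, filtered on level, weighted the arrays or fitted the groups of a contrast alone. Of 446 values of the SE differences of the 9 genes, 444 kept their sign. The exceptions were the differences in Astro-D2KO mice of Acvr1 (-0.02) and Acvr2b (0.00), both without Astro-D2KO saline replicate 3. Of 660 values of genotype differences and interactions 641 kept direction and side of the threshold and 19 changed sign, all small differences that did not pass under any alternative; the number of the 9 genes that passed stayed 0. Of 1220 values of pathway gene calls, 1145 stayed on their side and 0 changed sign.

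With the pair of arrays left out, the genes called between genotypes numbered 1 under saline, 5 after SE and 1 in the interaction, against 0 each; leaving out 1 array in turn gave 0 to 2 after SE, and the fit on the groups of the contrast alone gave 1 under saline. The pathway genes that fell in Astro-D2KO mice numbered 3 rather than 5 with the pair left out or with quantile normalisation repeated, and 2 to 5 with 1 array left out; in control mice 1 to 2 fell.

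Signs of genotype differences and interactions changed as follows. With 1 array left out, the interaction ranged from -0.30 to 0.10 for Acvr1 and from -0.10 to 0.64 for Acvr1c. The genotype difference under saline ranged from -0.14 to 0.04 for Acvr2b and from -0.12 to 0.04 for Fst, and that after SE from -0.17 to 0.09 for Inhba and from -0.20 to 0.04 for Smad7. With the pair left out, the Acvr1 interaction was 0.07, and the genotype difference after SE was -0.02 for Acvr1b and 0.04 for Inhba. With array weights that of Inhba was 0.01. The cause was not tested.

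With the replicate block, 4576 and 4109 genes differed between SE and saline in control and Astro-D2KO mice (4907 and 4459 without it) and 0 between genotypes or in the interaction. The residuals of the 24 pairs of arrays with the same number correlated from -0.29 to 0.34, with a mean of -0.021 against 0.0066 for other pairs. On average arrays with the same number were thus no more alike than others. Whether they shared an experiment is not known from the labels. The level filter dropped Inhbb and Acvr2b, and the interaction had no fit on a pair of groups. With 4 arrays per group, differences of the size of those in the receptor genes are poorly resolved.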
